A study of Homo sapiens with 4 samples.

Results

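The genes described are 6 Wnt ligands (WNT3, WNT8A, WNT3A, WNT5A, WNT5B and WNT11) and 4 targets of the canonical Wnt pathway that are used as its readout (AXIN2, LEF1, SP5 and DKK1). They are 10 of the 59050 genes in a table of RNA-seq read counts, matched by gene symbol. The set was chosen by the difference between the same libraries that are compared here, so their values and calls are a description, and no p-value is given for the 10 genes. HUES8, a human embryonic stem cell line, was grown on Matrigel in mTeSR1, a medium for undifferentiated culture, and 2 libraries carry the genotype label WT and 2 the label CPT2 KO. The treatment label reads WT in all 4 libraries, and no agent is named for either group. CPT2, carnitine palmitoyltransferase 2, works on the inner mitochondrial membrane, where it returns long-chain fatty acids from carnitine to coenzyme A before oxidation. The study's title names fatty acid synthesis and oxidation in the differentiation of definitive endoderm. The sources used here do not say whether the CPT2 KO-labelled libraries come from 1 clone or several, how the gene was disrupted, or whether replicates are separate cultures, so the spread between replicates may be technical.

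Wnt proteins are secreted, lipid-modified ligands that bind Frizzled receptors. In the canonical branch, with LRP5 or LRP6 as co-receptor, they stop the destruction of beta-catenin, which then enters the nucleus and acts with TCF and LEF factors on target genes. Several targets, AXIN2 and DKK1 among them, feed back to damp the pathway. In the mammalian embryo Wnt3 is needed for the primitive streak, from which mesoderm and endoderm arise, and human embryonic stem cells exposed to WNT3A or to Nodal and Activin ligands enter a state that resembles it. WNT5A, WNT5B and WNT11 are best known for beta-catenin-independent signalling in cell polarity and movement.

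Genes are called where the Benjamini-Hochberg adjusted p of edgeR's quasi-likelihood test, over all 17564 tested genes, is under 0.05. CPT2 (chr1:53196429-53214197, plus strand), the gene named in the genotype label, had 52 and 72 counts in WT-labelled replicates 1 and 2 and 233 and 170 in CPT2 KO-labelled replicates 1 and 2. The targeted transcript was thus higher, not lower, in the CPT2 KO-labelled libraries, by a log2 fold change of 1.78 (SE 0.273, edgeR adjusted p = 0.0218). Its call was lost without CPT2 KO-labelled replicate 1 (log2 fold change 1.69), without replicate 2 of that label (1.87) and with limma-voom (adjusted p = 0.0634). Counts per gene do not show whether the transcript carries an edit or whether the labels were exchanged. Directions below follow the labels as given, and exchanged labels would reverse every one of them. CPT2 shares 1151 exon bases with the antisense gene AL606760.2, which had 2 counts in all, and 99 with C1orf123, a protein-coding gene on the opposite strand that was not analysed here. Library totals were 16887789 to 20460031 counts. WT-labelled replicate 1 was the odd library: compared with each of the others over the tested genes, its chi-square divided by the degrees of freedom was 43.6 to 58.1, against 11.3 to 13.6 for pairs without it. The pluripotency markers POU5F1, NANOG and SOX2 were high in all 4 libraries, and edgeR, DESeq2 and limma-voom each called 0 of 7 listed pluripotency genes (1 had an unadjusted p under 0.05).

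Promoter sequences of 4 of the genes are shown because SP5 and DKK1 carry core TCF/LEF motifs close to their start sites, while WNT3 and WNT8A, whose transcripts differed most clearly between the labels, carry none there. They are from RefSeq on GRCh38.p14 and run 5′ to 3′ on the gene's strand. The search covered the 250 bases before the start site on both strands for the TCF/LEF core CTTTGNN, with A or T at each N, and for AATCCACA, a motif of FOXH1, the partner of SMAD proteins in Nodal signalling. Capitals mark the matches. Exon bases of WNT3 (68) and WNT8A (141) at the 3′ end of their windows, as annotated in GENCODE 29, were searched but are not printed. The DKK1 window lies within an exon of PRKG1-AS1, a noncoding RNA on the opposite strand. The WNT3 window lies inside the span of the gene in GENCODE 29, which includes a start further upstream. The printed stretches are chr2:170715087-170715336 (plus strand) for SP5, chr10:52314031-52314280 (plus strand) for DKK1, chr17:46818761-46818942 (minus strand) for WNT3 and chr5:138083783-138083891 (plus strand) for WNT8A.
SP5: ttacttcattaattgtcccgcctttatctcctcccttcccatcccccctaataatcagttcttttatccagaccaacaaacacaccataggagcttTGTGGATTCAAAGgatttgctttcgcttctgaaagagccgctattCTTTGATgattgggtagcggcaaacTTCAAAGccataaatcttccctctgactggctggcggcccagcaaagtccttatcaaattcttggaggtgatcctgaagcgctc
DKK1: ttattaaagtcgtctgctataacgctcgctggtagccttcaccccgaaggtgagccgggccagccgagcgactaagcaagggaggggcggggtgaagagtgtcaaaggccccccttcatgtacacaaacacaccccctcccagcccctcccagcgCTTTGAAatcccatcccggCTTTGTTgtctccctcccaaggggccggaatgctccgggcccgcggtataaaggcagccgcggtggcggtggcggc
WNT3: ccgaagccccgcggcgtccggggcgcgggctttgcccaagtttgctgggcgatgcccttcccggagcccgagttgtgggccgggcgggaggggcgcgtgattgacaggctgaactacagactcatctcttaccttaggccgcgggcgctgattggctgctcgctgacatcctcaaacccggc
WNT8A: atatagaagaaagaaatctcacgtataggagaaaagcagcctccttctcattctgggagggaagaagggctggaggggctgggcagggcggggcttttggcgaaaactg

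The SP5 window held 3 TCF/LEF cores, which begin 148, 109 and 84 bases before the start site. It also held 1 FOXH1 match, which begins 154 bases before the start site and overlaps the first of the cores. The DKK1 window held 2 cores, which begin 95 and 76 bases before its start site. The windows of WNT3, WNT8A, WNT3A, WNT5A, WNT5B and LEF1 held 0 cores. AXIN2 and WNT11 have no entry in the promoter table used. Of all 35116 RefSeq promoter windows of the same length, 12.0% held at least 1 TCF/LEF core, 1.21% at least 2 and 0.122% at least 3, and 0.709% held the FOXH1 motif. A match is a description of letters, not of a bound site.

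Among the ligands, WNT3 and WNT8A were the pair with a clear separation between the labels. Gene positions are from GENCODE 29 on GRCh38. WNT3 (chr17:46762506-46833154, minus strand) had 90 and 126 counts in WT-labelled replicates 1 and 2 and 586 and 315 in CPT2 KO-labelled replicates 1 and 2. In CPM, read counts put on an equal library size with TMM factors, it stood at 4.88 and 6.12 CPM against 29 and 19.0 CPM. Both CPT2 KO-labelled libraries lay well above both labelled WT, with replicate 1 the highest. The group means were 5.50 ± 0.875 CPM and 24.0 ± 7.09 CPM (SD, n = 2 each), a log2 fold change of 2.13 (SE 0.265), or 4.36-fold. In embryos WNT3 is a canonical ligand required for gastrulation.

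WNT8A (chr5:138083892-138092365, plus strand), another canonical ligand of the early embryo, was nearly absent from the WT-labelled libraries. It had 1 count in each of these and 47 and 21 counts in CPT2 KO-labelled replicates 1 and 2. As levels these are 0.0542 and 0.0485 CPM against 2.33 and 1.26 CPM, so a single read set the level of each WT-labelled library. Summed over replicates, 2 counts stood against 68, a ratio of 36.1 with a 95% counting interval from 9.62 to 304. That interval covers counting error only. The edgeR log2 fold change was 4.99 (SE 0.83), a value that depends on the prior count at such low counts.

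WNT3A (chr1:228007051-228061260, plus strand), the ligand commonly added to stem cell cultures to start streak differentiation, was barely present under either label. It had 7 and 6 counts in the WT-labelled libraries and 6 and 7 in the CPT2 KO-labelled pair, too few for the test. Its summed ratio was 1.06, with a counting interval from 0.454 to 2.49. WNT3 and WNT3A transcripts share at most 35 identical bases in a row and WNT8A and WNT2 at most 38, the longest runs that WNT3 and WNT8A share with any other Wnt ligand in GENCODE 29. WNT2 had 0 counts in all 4 libraries. How the authors counted reads with several alignments was not given in the sources used here.

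The ligands best known for beta-catenin-independent signalling stood slightly lower, if anything, under the CPT2 KO label, and none of them was called by edgeR, DESeq2 or limma-voom. WNT5A (chr3:55465715-55490539, minus strand) had 27.7 and 33.0 CPM in WT-labelled replicates 1 and 2 and 19.9 and 26.1 CPM in the CPT2 KO-labelled pair. Its groups did not overlap, but the gap of 27.7 to 26.1 CPM between them was smaller than the spread within either label. Its log2 fold change was -0.40 (SE 0.194), and -0.52 without WT-labelled replicate 1. By counting error alone, which leaves out the spread between replicates, its summed ratio of 0.745 had an interval from 0.681 to 0.815. WNT5B (chr12:1529891-1647243, plus strand) had 10.5 and 7.72 CPM against 6.93 and 6.81 CPM, a log2 fold change of -0.40 (SE 0.259), which was -0.17 without WT-labelled replicate 1. Its summed ratio of 0.761 had a counting interval from 0.645 to 0.897, with the same limit. WNT11 (chr11:76186325-76210736, minus strand) had 15 and 8 counts against 4 and 8, overlapped between the labels and was too low for the test. WNT11 shares exon bases with the antisense gene AP000785.1, which was at 0 counts in all 4 libraries.

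**Figure D1:**
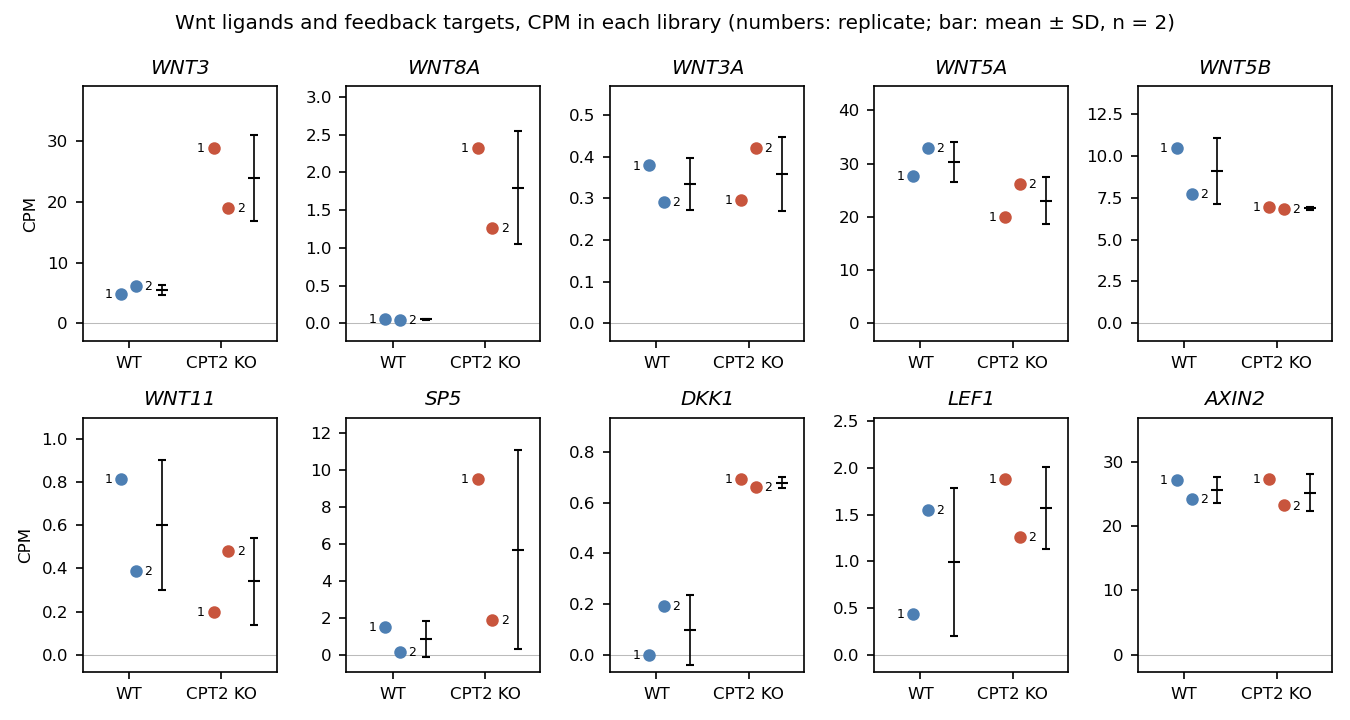
CPM (vertical axis, a separate linear scale in each panel) of the 10 genes in the 2 libraries labelled WT (blue) and the 2 labelled CPT2 KO (red), with replicate numbers beside the points and mean ± SD beside each group. WNT3 and WNT8A separate by label, AXIN2 stays between 23.2 and 27.3 CPM in every library, and for SP5 CPT2 KO-labelled replicate 1 at 9.50 CPM stands above the other 3 libraries, which reach 1.87 CPM at most.

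The targets did not move as a block. AXIN2 (chr17:65528563-65561647, minus strand), a scaffold of the beta-catenin destruction complex and the most widely used canonical readout, had 500 and 498 counts in the WT-labelled libraries and 551 and 385 in the CPT2 KO-labelled pair. These are 27.1 and 24.2 CPM against 27.3 and 23.2 CPM, so the libraries of the 2 labels overlapped. The group means were 25.6 ± 2.07 CPM and 25.2 ± 2.88 CPM (SD, n = 2 each), and the log2 fold change was -0.02 (SE 0.178). The sign of that small value turned to 0.0654 without WT-labelled replicate 1 and to 0.0927 without CPT2 KO-labelled replicate 2. By counting error alone, the summed ratio of 0.996 had an interval from 0.910 to 1.09. AXIN2 shares 1316 exon bases with AC004805.1 on the same strand, which was at 0 counts throughout, so reads of the shared part may have been left uncounted in every library.

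SP5 (chr2:170715351-170718078, plus strand), a zinc finger factor that is itself a repressor at Wnt targets, had 28 and 3 counts in WT-labelled replicates 1 and 2 and 192 and 31 in the CPT2 KO-labelled pair. At 1.52, 0.146, 9.50 and 1.87 CPM, the groups did not overlap, but CPT2 KO-labelled replicate 2 and WT-labelled replicate 1 lay close together. The log2 fold change of 2.86 (SE 1.23) was not called. It ranged from 1.20 without CPT2 KO-labelled replicate 1 to 5.28 without WT-labelled replicate 1, so single libraries set its size. This is the gene whose window above holds 3 TCF/LEF cores and the FOXH1 match.

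DKK1 (chr10:52314296-52318042, plus strand), a secreted inhibitor that binds LRP5 and LRP6, was close to the detection limit. Across the libraries of both labels, 1 count was worth 0.0485 to 0.0603 CPM. DKK1 had 0 and 4 counts in WT-labelled replicates 1 and 2 and 14 and 11 in the CPT2 KO-labelled pair. Its groups did not overlap, its summed ratio was 6.64 with a counting interval from 2.29 to 26.2, and its log2 fold change of 2.65 (SE 1.01) was not called. That value ranged from 1.77 without WT-labelled replicate 1, the library at 0, to 6.66 without WT-labelled replicate 2. DKK1 shares 212 exon bases with the antisense gene PRKG1-AS1, which had 5, 0, 7 and 4 counts in the same order of libraries. Without knowledge of strand, reads of these 2 genes cannot be told apart within the shared bases.

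LEF1 (chr4:108047545-108168956, minus strand), a DNA-binding partner of beta-catenin and a target of the pathway, had 8 and 32 counts in WT-labelled replicates 1 and 2 and 38 and 21 in the CPT2 KO-labelled pair. Its groups overlapped. By counting error alone, the summed ratio of 1.57 had an interval from 1.03 to 2.4. The log2 fold change of 0.64 (SE 0.575) was 0.04 without WT-labelled replicate 1 and 1.87 without WT-labelled replicate 2. LEF1 therefore showed no separation that held across libraries. LEF1-AS1, which shares exon bases with it, had 1 count in all.

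Of the 10 genes, 8 had enough counts to be tested. With edgeR, WNT3 and WNT8A were called higher and 0 were called lower, where 0.359% of all tested genes were called higher and 0.0569% lower. Both CPT2 KO-labelled libraries lay above both labelled WT for 4 of the 8 (WNT3, WNT8A, SP5 and DKK1) and below them for 2 (WNT5A and WNT5B). The same patterns were found for 21.0% and 19.8% of all tested genes. The median log2 fold change of the 8 was 1.38, beside 0.00175 over all tested genes. Because the genes were chosen with this contrast in view, nothing is read from these counts.

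The calls of WNT3 and WNT8A were lost without CPT2 KO-labelled replicate 1, where the replicate spread came from the WT-labelled pair alone. Both genes were highest in CPT2 KO-labelled replicate 1, and whether their level there led to the loss was not tested. Without that library 0 of the 8 were called, where 0.188% of all tested genes were called in either direction. WNT3 had a log2 fold change of 1.78 and WNT8A 4.46 there. Both were called without WT-labelled replicate 1 (WNT3 1.98, WNT8A 5.07), where 0.848% of all genes were called, and without WT-labelled replicate 2, where 6.86% were. Both were also called without CPT2 KO-labelled replicate 2, where 0.473% of all genes were called. In these fits the lone library of a label is assumed to vary like the other pair, and as the genes were chosen on this contrast, nothing is read from the calls. DESeq2 called both, with 0.871% of its tested genes called higher and 0.278% lower. Limma-voom called WNT3 and not WNT8A, with 0.171% of all genes called. None of these fits called WNT5A or WNT5B lower.

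**Figure D2:**
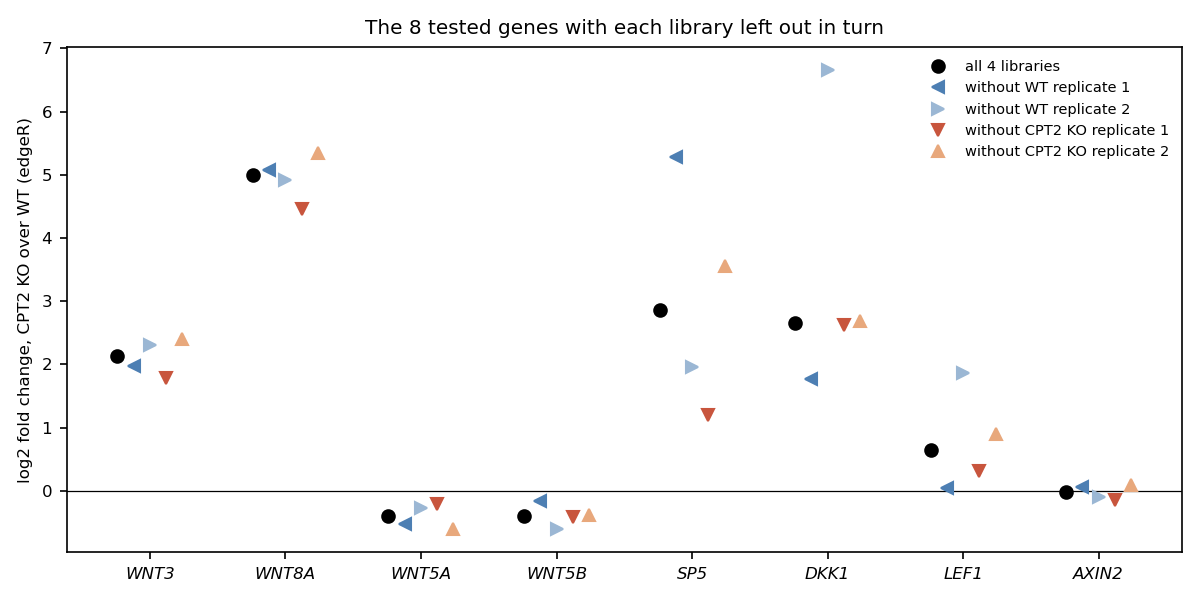
The edgeR log2 fold change, CPT2 KO over WT (vertical axis), of the 8 tested genes with all 4 libraries (black) and with each library left out in turn (coloured triangles). WNT3 stays between 1.78 and 2.40 and WNT8A between 4.46 and 5.34, while SP5 ranges from 1.20 to 5.28 and DKK1 from 1.77 to 6.66.

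To set the genes side by side, levels were divided by the deposited gene length (CPM per kilobase). On that scale and over all 4 libraries, the mean levels ran from AXIN2 (4.87) through WNT5A (3.60), WNT3 (3.46), WNT5B (1.88), SP5 (1.58), WNT8A (0.442), LEF1 (0.239), WNT11 (0.198) and DKK1 (0.174) to WNT3A (0.116). The order differed between the labels. In the WT-labelled libraries, WNT5A (4.10 ± 0.503) was above WNT5B (2.15 ± 0.467) and WNT3 (1.29 ± 0.206, CPM per kilobase, SD, n = 2). In the CPT2 KO-labelled pair, WNT3 (5.62 ± 1.66) had the highest mean of the 10 genes, but its libraries at 6.80 and 4.45 overlapped those of AXIN2 at 5.22 and 4.44. Over the 4 libraries together, the levels of each gene overlapped those of its neighbours in the order above, so the pooled ranges separate no neighbouring pair. Compared within each library, AXIN2 lay above WNT5A, and SP5 above WNT8A, in all 4 libraries. Within a label the order was another: WNT8A had the lowest mean of the 10 genes under the WT label (0.0246 ± 0.00192). It lay below WNT3A (0.112 ± 0.0208) there, but overlapped DKK1 (0.0437 ± 0.0618). DKK1, at 0 counts, was the lowest of the 10 genes in WT-labelled replicate 1. WNT8A lay below LEF1 in both WT-labelled libraries and above it in both CPT2 KO-labelled ones, without overlap in either.

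The make-up of the Wnt ligand transcripts followed from these levels. Summed over the 19 human Wnt genes, ligand transcripts reached 9.82 and 9.37 CPM per kilobase in WT-labelled replicates 1 and 2 and 14.5 and 12.2 in the CPT2 KO-labelled pair. WNT3 made up 11.6% and 15.3% of the sum in the WT-labelled libraries and 46.9% and 36.4% in the CPT2 KO-labelled pair. WNT5A made up 38.1% and 47.6% against 18.6% and 28.8%. WNT3 was the most abundant ligand in both CPT2 KO-labelled libraries, and WNT5A in both labelled WT. WNT8A made up 0.264% and 0.248% against 7.69% and 4.95%. The ratio of WNT3 to WNT5A per kilobase was 0.305 and 0.322 in WT-labelled replicates 1 and 2 and 2.53 and 1.26 in the CPT2 KO-labelled pair. It is a ratio within a library and so does not depend on library scaling.

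**Figure D3:**
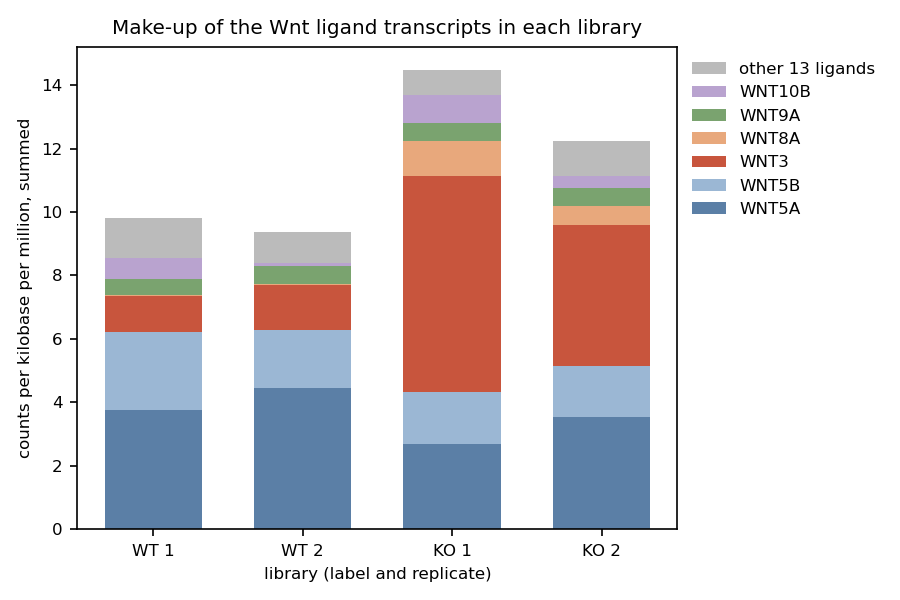
Stacked levels (CPM per kilobase, vertical axis) of the 19 Wnt ligand genes in each of the 4 libraries (horizontal axis), with 6 ligands coloured and the other 13 in grey. WNT3 (red) fills 11.6% and 15.3% of the bars labelled WT and 46.9% and 36.4% of the CPT2 KO-labelled pair, and the blue WNT5A and WNT5B parts are smaller in the latter.

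Of the 13 other Wnt ligands, 6 had enough counts to be tested, and edgeR, DESeq2 and limma-voom each called 0 (0 had an unadjusted p under 0.05). Those of highest level per kilobase were WNT9A (log2 fold change 0.07, edgeR adjusted p = 0.969) and WNT10B, which had 31 and 5 counts against 47 and 16 (0.87, edgeR adjusted p = 0.742). Single libraries set the value of WNT10B, which was 2.78 without WT-labelled replicate 1, 0.018 without WT-labelled replicate 2 and 0.0415 without CPT2 KO-labelled replicate 1. WNT2, WNT6 and WNT10A had 0 counts in all 4 libraries. The number of ligand genes with at least 1 count was 15 in each WT-labelled library and 14 and 13 in the CPT2 KO-labelled pair.

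The genes beside WNT3 and WNT8A were not called by edgeR. WNT9B, which lies 47 bases from WNT3, had 16 and 17 counts against 16 and 12 (log2 fold change -0.15, edgeR adjusted p = 0.952). NSF, a vesicle fusion ATPase on the other side at 5042 bases, showed a log2 fold change of -0.06 (adjusted p = 0.942 by edgeR). FAM13B, 31931 bases from WNT8A, showed a log2 fold change of 0.18 (adjusted p = 0.764 by edgeR), and NME5, 22807 bases away, one of -0.87 (adjusted p = 0.682 by edgeR). The exons of WNT3, WNT8A, WNT3A, WNT5A, WNT5B and SP5 overlap no other gene in GENCODE 29.

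Genes with the most similar profile over the 4 libraries were found by the root mean square distance of log2 CPM, each gene centred on its own mean, among 15401 tested genes of at least 1 CPM on average. For WNT3 these were S100A6, a calcium-binding protein (distance 0.0784), HAPLN1, a link protein of the hyaluronan matrix (0.104), BTNL9 (0.154), AC100868.1 (0.190) and PLBD1 (0.197). HAPLN1 had 119 and 169 counts in the WT-labelled libraries and 692 and 355 in the CPT2 KO-labelled pair. For WNT8A they were NODAL (0.255), PHETA2 (0.261), C5orf63 (0.288), FAR2P2 (0.313) and GATA4 (0.313). The 0.1 CPM added before the log is larger than WNT8A in either WT-labelled library (0.0542 and 0.0485 CPM), so these distances depend on it. The edgeR log2 fold change was 4.99 for WNT8A and 3.49 for NODAL. NODAL, the TGF-beta family ligand of streak and endoderm formation, had 50 and 82 counts against 882 and 528, and GATA4, an endoderm and heart factor, had 5 and 4 against 113 and 30. With 4 libraries, many genes that differ by label share such a profile, and no test was made on the likeness. AC100868.1 shares exon bases with HHLA1 on the same strand, and S100A6, PLBD1, NODAL and FAR2P2 share exon bases with another gene on the opposite strand, so the counts of these genes are uncertain.

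The rest of the pathway was described from lists of ligands, secretion, receptors, extracellular modulators, cytoplasmic and nuclear components, targets and planar polarity genes. Without the 10 genes above, they hold 122 genes reported here, of which 102 were tested. FZD5 and GPC4 were called higher by edgeR and 0 were called lower, beside 0.359% and 0.0569% of all tested genes. At an unadjusted p under 0.05 there were 9 higher and 11 lower. DESeq2 called 3 higher and 1 lower, and limma-voom 2 higher and 0 lower. Both CPT2 KO-labelled libraries lay above both labelled WT for 20 of the 102 and below them for 32, beside 21.0% and 19.8% of all tested genes. The median log2 fold change of the 102 was -0.10, beside 0.00175 over all tested genes, and -0.04 without WT-labelled replicate 1, and 37 were positive and 65 negative.

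Among 16 tested receptors, 1 rose in edgeR. FZD5, a Frizzled receptor, had 1349 and 1137 counts in WT-labelled replicates 1 and 2 and 2987 and 2455 in the CPT2 KO-labelled pair, a log2 fold change of 1.21 (SE 0.16, edgeR adjusted p = 0.0097). Both CPT2 KO-labelled libraries were above both labelled WT, and the call was lost without CPT2 KO-labelled replicate 1 (log2 fold change 1.20, edgeR adjusted p = 0.0565). Without WT-labelled replicate 1 its log2 fold change was 1.42. Of the summed Frizzled transcripts per kilobase, FZD5 made up 12.9% and 12.5% in the WT-labelled libraries and 28.7% and 29.9% in the CPT2 KO-labelled pair. FZD7, the Frizzled gene of highest level over the 4 libraries, made up 30.7% and 31.6% against 27.4% and 30.6%. Its log2 fold change was -0.11 (adjusted p = 0.859 by edgeR) and turned to 0.0635 without WT-labelled replicate 1. FZD2 had 884 and 514 counts against 342 and 256 (log2 fold change -1.17, edgeR adjusted p = 0.226) and was called lower with DESeq2 (adjusted p = 0.00642). Without WT-labelled replicate 1 its log2 fold change was -0.62 (adjusted p = 0.325 by edgeR). It stands outside the rule for naming genes and was picked after its values were seen. The co-receptor LRP6 showed a log2 fold change of -0.28 (adjusted p = 0.576 by edgeR) and the pseudokinase receptor PTK7 one of -0.12 (adjusted p = 0.809 by edgeR), which was -0.0381 without WT-labelled replicate 1.

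Among 20 tested extracellular modulators, 1 rose and 0 fell in edgeR and in DESeq2 (3 higher and 3 lower at an unadjusted p under 0.05). GPC4, a cell surface glypican, had 4010 and 4235 counts in the WT-labelled libraries and 8638 and 6187 in the CPT2 KO-labelled pair, a log2 fold change of 0.92 (SE 0.135, edgeR adjusted p = 0.0164). Its call was lost without CPT2 KO-labelled replicate 1 (log2 fold change 0.82, edgeR adjusted p = 0.184). SFRP2, a secreted Wnt antagonist and the modulator of highest level, had 8993 and 10900 counts against 8275 and 8014 (log2 fold change -0.19, edgeR adjusted p = 0.702). DKK4, a relative of DKK1 that did not pass the filter on low counts, had 0 and 1 counts in the WT-labelled libraries and 69 and 0 in CPT2 KO-labelled replicates 1 and 2. It was picked after its values were seen, and its signal came from a single library.

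Of the 13 tested targets reported here beside AXIN2, LEF1, SP5 and DKK1, edgeR and limma-voom called 0 and DESeq2 called 1 higher (3 higher and 0 lower at an unadjusted p under 0.05 in edgeR), and their median log2 fold change was 0.04. TBXT (brachyury), a streak and mesoderm factor, had 9 and 4 counts against 136 and 15 and was not called (log2 fold change 3.55, SE 1.25, edgeR adjusted p = 0.523). DESeq2 called it (adjusted p = 0.00696). The feedback genes ZNRF3, RNF43, NKD1 and NOTUM were picked after their values were seen, as the targets closest to AXIN2 in role. Their log2 fold changes were -0.01 for ZNRF3 and 0.13 for RNF43, which remove Frizzled from the surface, -0.25 for NKD1, which binds Dishevelled, and -0.33 for NOTUM, which strips the lipid from Wnt. None of these 4 was called by edgeR (adjusted p = 0.993, 0.940, 0.717 and 0.848), and the sign for ZNRF3, RNF43 and NOTUM changed when single libraries were left out. RNF43 shares exon bases with genes on both strands. Both CPT2 KO-labelled libraries lay above both labelled WT for 5 of the 13 targets and below them for 2. The same patterns were found for 21.0% and 19.8% of all tested genes. Beside TBXT, the 5 were LGR5 (log2 fold change 1.91), BAMBI (0.55), APCDD1 (0.26) and TCF7 (0.25). These 4 were also picked after their values were seen, and edgeR called none of them (adjusted p = 0.525, 0.395, 0.736 and 0.707). LGR5 had 1 and 7 counts against 17 and 12. The abundant targets CCND1 (log2 fold change 0.04) and SP8 (-0.28) were not called by edgeR either (adjusted p = 0.955 and 0.568), and the sign for CCND1 turned to -0.112 without WT-labelled replicate 1.

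Among 20 cytoplasmic and 14 nuclear components edgeR, DESeq2 and limma-voom each called 0 (0 higher and 5 lower at an unadjusted p under 0.05). CTNNB1, which encodes beta-catenin, showed a log2 fold change of -0.06 (adjusted p = 0.919 by edgeR), TCF7L1, the TCF repressor of stem cells, one of -0.17 (adjusted p = 0.773 by edgeR), and the co-repressor TLE1 one of -0.23 (adjusted p = 0.629 by edgeR). The sign turned to 0.0126 for CTNNB1 without CPT2 KO-labelled replicate 2 and to 0.0421 for TCF7L1 without WT-labelled replicate 1. Of the cytoplasmic genes, 18 had a negative log2 fold change (median -0.18), and of the nuclear genes 12 did (median -0.24). Both CPT2 KO-labelled libraries lay below both labelled WT for 8 genes of each of these lists and above them for 0 and 2, beside 19.8% and 21.0% of all tested genes. Without WT-labelled replicate 1 the medians were -0.073 and -0.114, each over 1.5 times smaller in size. TNKS2, a tankyrase that acts on AXIN proteins, showed a log2 fold change of -0.19 (adjusted p = 0.702 by edgeR), which was -0.0741 without WT-labelled replicate 1.

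The machinery of Wnt secretion and of planar polarity showed 0 calls among 9 and 12 tested genes in edgeR, DESeq2 and limma-voom (3 higher and 2 lower at an unadjusted p under 0.05), with medians of -0.02 and -0.03. PORCN, which attaches the lipid to Wnt proteins, showed a log2 fold change of -0.08 (adjusted p = 0.945 by edgeR) that turned to 0.111 without CPT2 KO-labelled replicate 1. WLS, the carrier that takes Wnt to the cell surface, had 252 and 221 counts against 187 and 60 (log2 fold change -0.89, edgeR adjusted p = 0.534). The value for WLS was -1.75 without CPT2 KO-labelled replicate 1 and -0.39 without CPT2 KO-labelled replicate 2. The cargo receptors TMED2 (0.15) and TMED10 (-0.02) and the polarity genes VANGL2 (0.23) and SCRIB (-0.04) were the most abundant of these lists. None of the 4 was called by edgeR (adjusted p = 0.736, 0.970, 0.644 and 0.947). Without CPT2 KO-labelled replicate 2, TMED10 turned to 0.0325. TMED2, WLS and CCND1 share exon bases with genes on the opposite strand, so part of their counts may belong to those.

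**Figure D4:**
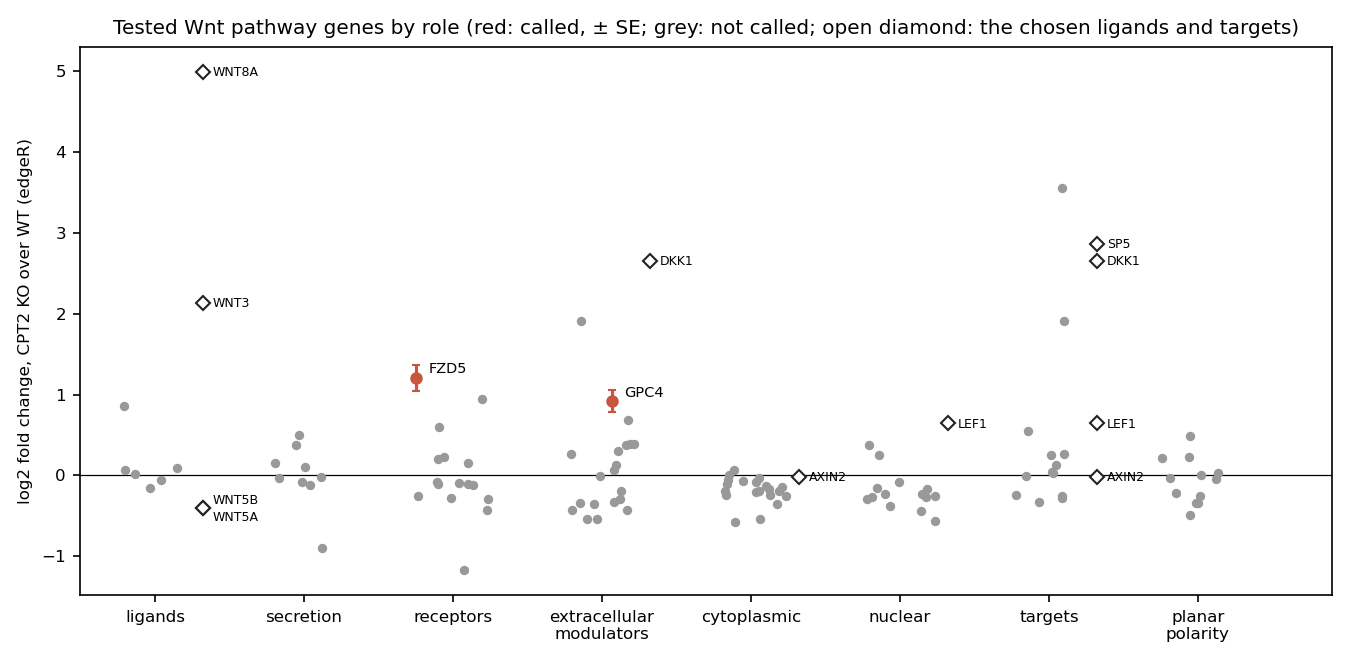
The edgeR log2 fold change, CPT2 KO over WT (vertical axis), of the tested Wnt pathway genes by role (horizontal axis, jittered, a gene may stand under more than 1 role), with called genes outside the chosen set in red with their SE and the chosen ligands and targets as open diamonds. FZD5 (1.21) and GPC4 (0.92) are the called genes shown, most cytoplasmic and nuclear genes lie just below 0, and WNT3, WNT8A, SP5 and DKK1 lie above 2 on the scale.

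Marker genes of primitive streak and endoderm were, in sum, also higher under the CPT2 KO label. The 8 listed streak genes summed to 14.5 and 12.7 CPM in the WT-labelled libraries and to 177 and 73.5 CPM in CPT2 KO-labelled replicates 1 and 2. All 8 were tested, and edgeR called 2 higher: FGF8, with 4 and 7 against 214 and 142 counts (log2 fold change 5.06, edgeR adjusted p = 0.000841), and NODAL (3.49, edgeR adjusted p = 0.000416). Of all tested genes, edgeR called 0.359% higher. The marker lists were chosen with earlier results of these data known, so these calls are a description. The T-box factor EOMES had 12 counts in each WT-labelled library and 867 and 109 in the CPT2 KO-labelled pair (adjusted p = 0.569 by edgeR), and the homeobox factor MIXL1 had 38 and 55 against 1348 and 360 (adjusted p = 0.344 by edgeR). Of the 8 streak genes, 6 were higher in both CPT2 KO-labelled libraries than in both labelled WT and 2 were lower. Those patterns held for 21.0% and 19.8% of all tested genes. The homeobox factor EVX1 had 66 and 47 counts against 11 and 11 (log2 fold change -2.27, edgeR adjusted p = 0.117), and the T-box factor TBX6 had 84 and 55 against 48 and 32 (-0.72, edgeR adjusted p = 0.614). EVX1 shares exon bases with EVX1-AS, which had 33, 23, 10 and 2 counts in the same order of libraries. The 6 endoderm genes summed to 11.2 and 6.80 CPM against 154 and 24.6 CPM. HHEX made up most of the WT-labelled sums, at 10.7 and 6.5 CPM against 10.5 and 10.2 CPM. It overlapped between the labels (log2 fold change 0.28, edgeR adjusted p = 0.776). CER1 gave 124 and 11.2 CPM of the CPT2 KO-labelled sums. CER1, a secreted inhibitor of Nodal, BMP and Wnt, rested mainly on CPT2 KO-labelled replicate 1, with 3 and 0 counts against 2509 and 185. SOX17 and GATA6 were at 0 in both WT-labelled libraries and at 46 and 7 and at 74 and 7 counts in the CPT2 KO-labelled pair. Of the 4 endoderm genes with enough counts, edgeR and limma-voom called 0 and DESeq2 called 2 higher (3 were higher at an unadjusted p under 0.05). DESeq2 called 6 of the 8 streak genes higher, where it called 0.871% of its tested genes higher. SP5, TBXT, EOMES, FOXA2 and CER1 were each several times higher in CPT2 KO-labelled replicate 1 than in replicate 2. WNT3, WNT8A and DKK1 were closer between these replicates. So were the streak genes FGF8 (10.6 and 8.56 CPM) and NODAL (43.7 and 31.8 CPM).

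More cells of a streak-like kind and more RNA per cell cannot be told apart in these bulk libraries, and the part of such cells in the Wnt ligand and target levels was not tested. The 7 pluripotency markers summed to 7860 and 7850 CPM in the WT-labelled libraries and to 7830 and 8730 CPM in the CPT2 KO-labelled pair. The 6 neural markers summed to 30.2 and 31.1 CPM against 21.4 and 19.8 CPM. SIX3 made up most of each sum, at 23.2 and 21.1 CPM against 18.4 and 18.4 CPM (log2 fold change -0.27, edgeR adjusted p = 0.676). Beside 0.0569% of all tested genes, edgeR called SOX1 and SIX6 lower. Of these genes, limma-voom called 0 and edgeR called 0 without CPT2 KO-labelled replicate 2. PAX6 had 19 and 8 counts against 40 and 12 (log2 fold change 1.01, edgeR adjusted p = 0.664, and 0.0528 without CPT2 KO-labelled replicate 1), and LHX2, too low for the test, had 0 and 0 against 3 and 4. PAX6 shares exon bases with ELP4 on the opposite strand. Of the 7 fibroblast markers, summed to 198 and 227 CPM against 222 and 201 CPM, edgeR and DESeq2 called 0 of 4 tested (0 at an unadjusted p under 0.05). COL1A2 made up most of each sum, at 163 and 187 CPM against 187 and 161 CPM. COL1A1 followed at 29.2 and 32.9 CPM against 29.4 and 32.8 CPM. COL3A1, DCN and LUM had 7 counts or fewer in every library. The 5 trophoblast and amnion markers summed to 4.72 and 5.34 CPM against 6.43 and 6.57 CPM, with HAND1 at 0 in all 4 libraries. KRT7 made up most of each sum, at 4.28 and 4.71 CPM against 4.90 and 5.18 CPM. GATA3, with 2 and 6 counts against 7 and 17, and ISL1, with 0 and 0 against 8 and 4, were higher under the CPT2 KO label. TFAP2A, with 6 and 7 counts against 16 and 2, overlapped. GATA3, ISL1 and TFAP2A were too low for the test.

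**Figure D5:**
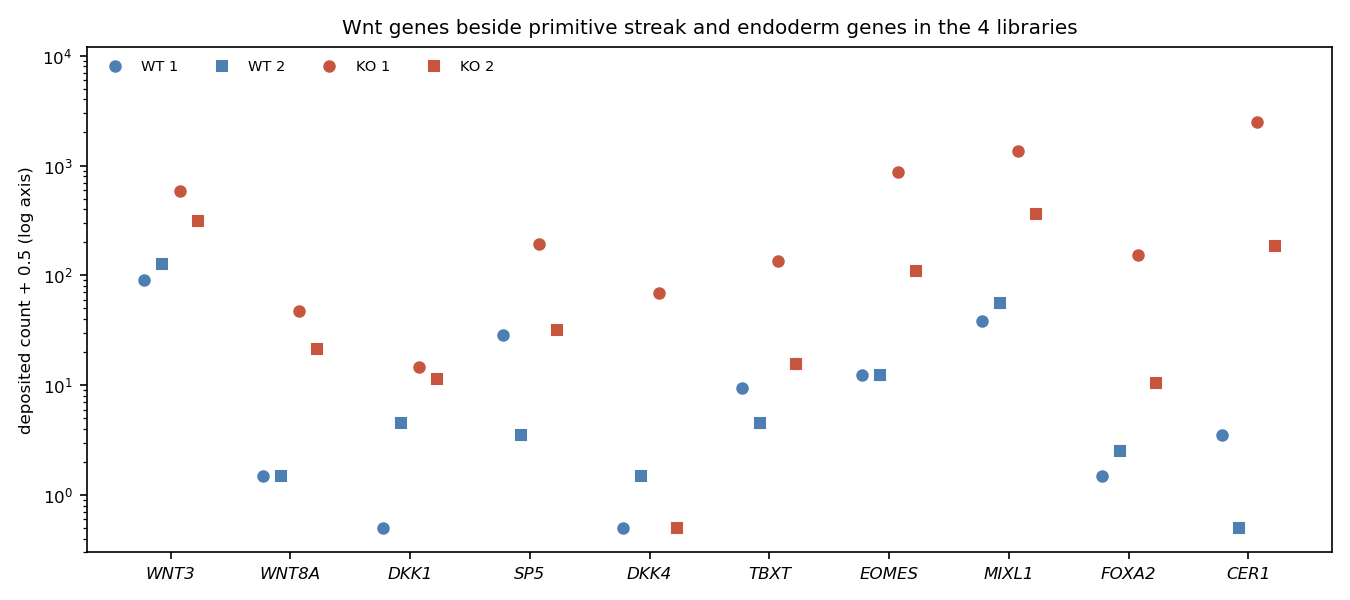
Deposited counts plus 0.5 on a log axis (vertical) of 4 of the Wnt genes, of DKK4 and of 5 primitive streak and endoderm genes in the 2 libraries labelled WT (blue) and the 2 labelled CPT2 KO (red), with circles for replicate 1 and squares for replicate 2. WNT3 and WNT8A are high in both CPT2 KO-labelled libraries, whereas DKK4 is high in replicate 1 alone, at 69 counts. CER1 has 2509 counts in replicate 1 and 185 in replicate 2. The streak genes FGF8 and NODAL, which were closer between those replicates, are not drawn.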

How the data were processed

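RNA-seq of total RNA was measured in 4 libraries of HUES8. Per the submitters' processing notes, HISAT2 2.1.0 and featureCounts 1.6.4 were used with hg38. The deposited table holds raw counts per gene symbol and gene lengths, per the file headers. For the annotation release, strandedness and multimapped reads, the setting was not given in the sources used here. For 4 of the 10 genes the deposited length equalled the exon length in GENCODE 29, from which positions and overlaps were taken.

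Genes with low counts were removed with filterByExpr, which left 17564 of the 31279 genes with a count. The groups were compared with the quasi-likelihood test of edgeR 4.0.16 in R 4.3.3 (TMM factors, robust estimation, group as the only term, Benjamini-Hochberg adjustment over all tested genes, threshold 0.05). SE is the log2 fold change divided by the square root of F. Intervals are exact binomial intervals at 95%. The fit was tested on simulated data. Likeness used log2(CPM + 0.1). Alternatives were DESeq2 1.42.0, limma-voom (limma 3.58.1), other scalings and filters, the legacy quasi-likelihood estimate, a replicate block and each library left out.

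The genes and all gene lists were chosen with earlier results of these data known. One gene that had been in the target list is not reported here and is left out of the pathway counts and the plot of fold changes by role. Beside the 10 genes, those named are CPT2, up to 6 called genes and the 2 of highest level per kilobase from each list, 9 fixed pathway genes (CTNNB1, TCF7L1, PORCN, WLS, FZD7, LRP6, TBXT, WNT9A and WNT9B), the 5 nearest genes to WNT3 and to WNT8A, cell type markers and genomic neighbours. FZD2, DKK4, ZNRF3, RNF43, NKD1, NOTUM, LGR5, BAMBI, APCDD1, TCF7, SFRP1, BCL9 and TNKS were picked after their values were seen.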

Additional observations from a re-analysis of the deposited data

How the results depend on the processing

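Over 13 alternatives, 66 of the named genes with a test kept their direction and their side of the threshold in 776 cases. They lost a call in 21, gained one in 40 and changed sign in 15. The 3 other scalings, the stricter filter and the legacy estimate changed no call of the 10 genes or of FZD5 and GPC4. Against 63 genes higher and 10 lower in all, 101 and 23 were called with no filter, 147 and 47 with DESeq2 and 28 and 2 with limma-voom, and 31 to 531 and 2 to 674 with 1 library left out. Limma-voom called 1 of the chosen genes (WNT3), and 0 to 2 were called with 1 library left out. Against 2 other pathway genes, 4 were called with DESeq2 and 0 to 10 with 1 library left out. The replicate block gave 233 higher and 140 lower genes, 3 chosen genes (SP5 added, log2 fold change 2.81) and 7 other pathway genes (BCL9, FZD2, SFRP1, TBXT and TNKS added). The labels give same-numbered replicates a shared number and do not say whether they were handled together. Deviations of same-numbered libraries correlated at 0.248 over genes, with 2 pairs. The signs that changed did so with 1 library left out, over ranges from -0.144 to 0.0927 (AXIN2), -0.112 to 0.208 (CCND1), -0.130 to 0.0126 (CTNNB1), -0.258 to 0.0635 (FZD7), -0.781 to 0.0566 (NOTUM), -0.276 to 0.111 (PORCN), -0.0704 to 0.335 (RNF43), -0.353 to 0.0421 (TCF7L1), -0.0781 to 0.0325 (TMED10), -0.0166 to 0.169 (WNT9A) and -0.0639 to 0.0503 (ZNRF3). CCND1 was also at -0.0476 without CPT2 KO-labelled replicate 1, and RNF43 at -0.0122 and ZNRF3 at 0.0372 without CPT2 KO-labelled replicate 2. The cause of these changes was not tested. At 1 count per library WNT8A could not be measured more finely under the WT label, and WNT3A, WNT11 and DKK1 were limited in the same way.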
